A study of Mus musculus with 14 samples.

Results

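The 10 genes described here are the inhibitors of cyclin-dependent kinases (CDKs) and the core of the p53-RB pathway: Cdkn1a, Cdkn1b, Cdkn1c, Cdkn2a, Cdkn2b, Cdkn2c, Cdkn2d, Trp53, Mdm2 and Rb1. They were taken by name from GENCODE release M21 of mm10, as 10 of 21938 protein-coding genes on the chromosomes. The rule for the choice uses names and no measured value, but the list was drawn up with earlier results of these data known. Each gene was examined with 50 kb to either side, and 165 of the 160144 H3K4me1 sites of the series overlapped these windows. Because the windows of Cdkn2a and Cdkn2b overlap, 19 of the 165 sites belong to both.

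H3K4me1, the monomethylated form of histone H3 lysine 4 found at enhancers and beside active promoters, was measured by ChIP-seq in iMEF cells, an immortalized line of mouse embryo fibroblasts. The clone used, NG3, carries a deletion of exon 4 of its own floxed Ash2l and lives on a human ASH2L fused to FKBP12F36V, which was brought in with a lentiviral construct and is degraded when the compound dTAG-13 is added. Untreated cells, labelled WT, were compared with cells given dTAG for 0.5, 2, 4, 8 or 16 h, with 2 libraries for each of the 6 conditions and 2 input libraries. All libraries therefore come from 1 clone, and the untreated cells carry the same deletion and fusion as the treated ones.

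The values are positions of peaks called by the authors, in a single set over all samples, here called sites. A site has a start and an end but no height, read count or library, so that it may stem from any of the 6 conditions. The authors report that H3K4me1 rose at many sites upon loss of ASH2L, nearly all of them at promoters. A promoter site is therefore not shown to be present in untreated cells. Depth per library, a change upon loss of ASH2L and an error over replicates could not be read from it, and none of the values below has a replicate or a test. A gene was counted as having a promoter site when a site overlapped the 1 kb to either side of its most upstream annotated transcription start site (TSS).

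The proteins of the Cip/Kip family, encoded by Cdkn1a (p21), Cdkn1b (p27) and Cdkn1c (p57), bind complexes of cyclins and CDKs, while the INK4 proteins bind the kinases that phosphorylate RB early in the cell cycle. Cdkn2a encodes both an INK4 protein, p16Ink4a, and p19Arf, an unrelated protein made from another TSS and another reading frame, which inhibits the ubiquitin ligase Mdm2 and thereby stabilizes p53. The p53 protein activates Cdkn1a and Mdm2, and RB holds back the E2F factors. In cultured mouse embryo fibroblasts Arf and p53 limit the number of divisions, and lines that escape often have lost 1 arm of this pathway.

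The sequences at the TSSs of Cdkn1a, Cdkn2a and Cdkn2b are shown because these TSSs differ in whether sites lie over them. Each begins 200 bases before a TSS of a coding transcript and ends with its first 20 transcribed bases, on the strand of the gene (GRCm38.p6, RefSeq sequence). Capitals mark a p53 response element in Cdkn1a and the Sp1 box (GGGCGG), searched on either strand, at p19Arf and in Cdkn2b, while the p16Ink4a stretch held neither. The p19Arf and p16Ink4a stretches, at chr4:89294634-89294853 and chr4:89282173-89282392, and that of Cdkn1a, at chr17:29090779-29090998, lay inside sites over all 220 bases. The stretch of Cdkn2b, at chr4:89311020-89311239, held no base of a site.
Cdkn1a-202: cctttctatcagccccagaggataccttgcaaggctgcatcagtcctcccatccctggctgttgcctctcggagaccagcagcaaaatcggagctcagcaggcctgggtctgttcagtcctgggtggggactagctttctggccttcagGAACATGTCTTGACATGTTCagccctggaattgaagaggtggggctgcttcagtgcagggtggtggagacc
Cdkn2a-202 (p19Arf): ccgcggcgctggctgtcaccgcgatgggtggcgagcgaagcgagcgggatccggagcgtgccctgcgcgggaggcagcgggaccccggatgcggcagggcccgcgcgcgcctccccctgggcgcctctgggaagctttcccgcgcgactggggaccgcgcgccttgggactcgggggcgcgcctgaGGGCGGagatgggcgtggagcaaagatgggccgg
Cdkn2a-201 (p16Ink4a): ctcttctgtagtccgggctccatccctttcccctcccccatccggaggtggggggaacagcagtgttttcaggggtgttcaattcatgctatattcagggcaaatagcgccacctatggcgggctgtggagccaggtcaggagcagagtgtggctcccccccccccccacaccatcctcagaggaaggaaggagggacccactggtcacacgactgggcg
Cdkn2b-201: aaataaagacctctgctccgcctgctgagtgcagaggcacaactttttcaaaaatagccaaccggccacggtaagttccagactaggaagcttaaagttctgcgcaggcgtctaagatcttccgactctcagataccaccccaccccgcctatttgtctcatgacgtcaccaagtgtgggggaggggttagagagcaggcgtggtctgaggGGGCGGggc

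Of the 4 stretches, that at the p19Arf TSS had the highest GC content, 77.3%, and that of Cdkn1a had 57.3%. CpG dinucleotides numbered 33 at p19Arf, compared with 10 in Cdkn2b, 6 at p16Ink4a and 2 in Cdkn1a. The Cdkn1a values are those of Cdkn1a-202 alone. At the coding TSS of Cdkn1a-201, further downstream, a stretch of the same length had 68.2% GC, 18 CpG dinucleotides and 2 Sp1 boxes. At the most upstream coding TSS, an Sp1 box was found in 7 of the 10 genes, compared with 39.6% of all protein-coding promoters of this length, and a CCAAT box (CCAAT) in 5 of the 10, compared with 33.2%. A CpG island lay within 1 kb of the TSS in 8 of the 10 genes, compared with 11822 of all 21938. These word shares were not counted over promoters with an island alone. The E2F words TTTCGCGC and TTTGGCGC, which 0.729% of all promoters held, matched none of the 10.

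A promoter site was present in 9 of the 10 genes, and the exception was Cdkn1c. Among all protein-coding genes, 63.9% had a promoter site, and the share was 93.0% where a CpG island lay within 1 kb of the TSS and 29.9% where none did. Such an island was found at 8 of the 10 genes. Cdkn1a and Trp53 had none at the most upstream TSS and still had a site there. In 7 genes the TSS itself was inside a site. Of the 8 genes with an island it was inside in 5, compared with 56.6% of all promoters with an island.

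**Figure D1:**
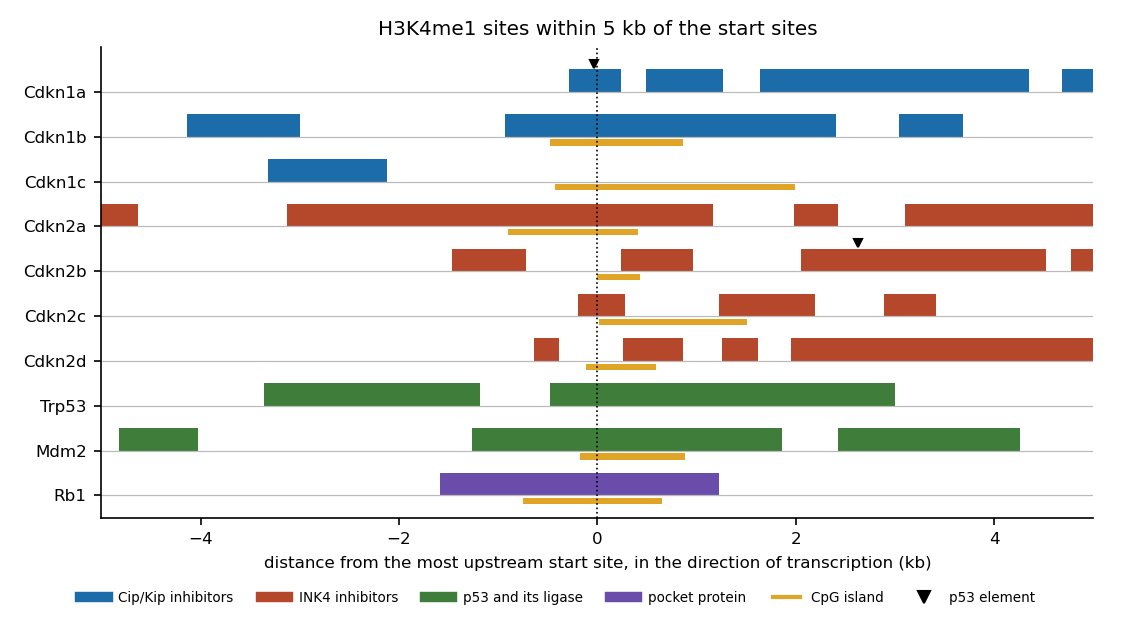
H3K4me1 sites (blocks) from 5 kb before to 5 kb after the most upstream TSS of each gene, with distance in kb along the direction of transcription, CpG islands within 1 kb of that TSS (thin bars) and p53 elements (triangles). The TSS lies inside a site in 7 genes, between 2 sites in Cdkn2b and Cdkn2d, and in Cdkn1c no site is nearer than 2124 bp.

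Cdkn1a lies at chr17:29090976-29100727 on the plus strand, and its window held 19 sites, which covered 24.5% of the bases. The most upstream TSS was inside a narrow site of 515 bp, chr17:29090695-29091209, which also holds the p53 element of the sequence above. Going into the gene, 3 further sites of 781, 2711 and 2081 bp followed, so that 59.5% of the gene body was covered. The site of 2711 bp lies over the TSSs of Cdkn1a-201 and Cdkn1a-205, 2793 and 2805 bp downstream of the most upstream one, both within 1 kb of a CpG island. From the last of these sites a stretch of 25844 bp without any site ran towards Rab44. Reads of 75 bases can be placed uniquely over 74.8% of it, or 25.5% when alternate and patch sequences of the assembly are counted.

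Upstream, sites were dense. Of the 12 sites in the 50 kb before Cdkn1a, 8 were centred in Trp53cor1, the gene of lincRNA-p21, a long non-coding RNA that p53 induces. These 8 sites were 223 to 4121 bp wide and added up to 12.0 kb, and the widest, chr17:29055494-29059614, was also the widest in the window. Downstream, 3 sites were found, all in Rab44.

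Cdkn1b, at chr6:134920401-134925513 on the plus strand, had 19 sites in its window as well, covering 20.2%. A site of 3334 bp, chr6:134919475-134922808, started 926 bp before the TSS and ran over the CpG island of 1339 bp, and 59.8% of the gene was covered. On this locus the sites leaned to the downstream side, with 11 there and 6 upstream. Lockd, a long non-coding RNA gene just downstream, held 7 of them, from 318 to 3310 bp wide.

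Cdkn1c differed from its 2 relatives. The gene lies at chr7:143458339-143461050 on the minus strand, its CpG island of 2422 bp was the longest of the 8, and neither the gene nor 1 kb to either side of any of its 5 annotated TSSs was touched by a site. The TSS sat in a stretch of 17055 bp without sites, which began 2124 bp upstream, at a site of 1195 bp (chr7:143463174-143464368). The window held 9 sites and 5.70% of it was covered, the lowest share of the 10 genes. Kcnq1, downstream, held 3 of the sites. The widest, 1717 bp at chr7:143501455-143503171, lay over the TSS of Phlda2, which like Cdkn1c belongs to an imprinted domain expressed from the maternal chromosome.

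**Figure D2:**
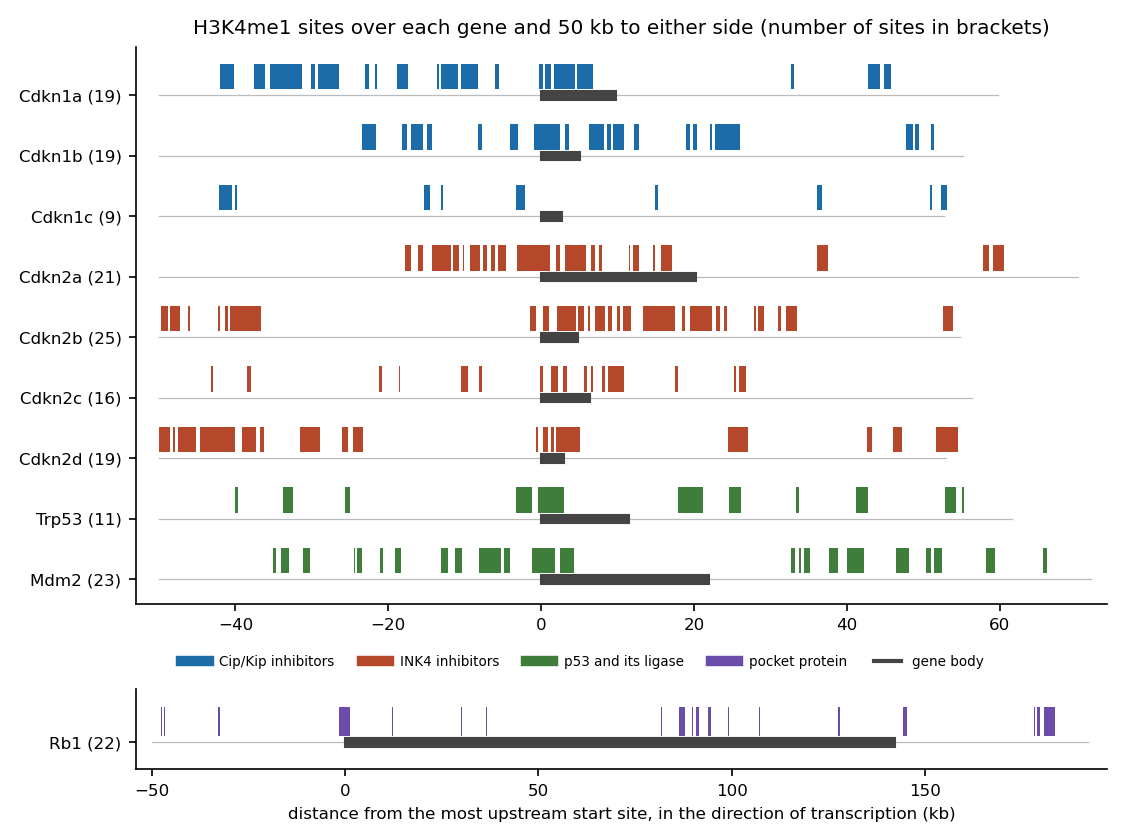
H3K4me1 sites (blocks) over each of the 10 genes (grey bars) and 50 kb to either side, with distance from the most upstream TSS in kb along the direction of transcription and Rb1 on a scale of its own. The number of sites ranges from 9 at Cdkn1c to 25 at Cdkn2b, and the sites of Cdkn2a and Cdkn2b are partly the same.

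Cdkn2a, at chr4:89274471-89294653, and Cdkn2b, at chr4:89306299-89311039, are transcribed in the same direction, on the minus strand. Their locus was not free of sites. From the start of Cdkn2a to the end of Cdkn2b, over 36569 bp, 17 sites covered 18881 bp or 51.6%, and the longest stretch without a site was 3477 bp. Between the 2 genes the share was 65.1%, with 7 sites over 11645 bp. The window of Cdkn2b reached 37.7% of sequenced bases, the highest share of the 10 genes, and that of Cdkn2a 25.2%, the next. These 2 windows hold 30300 and 27954 unsequenced bases, which the shares leave out, and the windows of the other genes hold none. Over all bases both shares would be lower.

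The 3 TSSs of the locus differed in the sites over them. The p19Arf TSS was inside a site of 4297 bp, chr4:89293489-89297785, the widest in both windows, which ran from 3132 bp before to 1164 bp after the TSS and over a CpG island of 1314 bp. The p16Ink4a TSS, 12461 bp further into the gene and without an island, was inside a site of 788 bp, chr4:89281860-89282647. In Cdkn2b the TSS was free of sites over 957 bp. Its flanks were a site of 721 bp that began 240 bp into the gene, chr4:89310079-89310799, and a site of 745 bp that ended 718 bp upstream, chr4:89311757-89312501. Within the long first intron of p19Arf and around p16Ink4a lay 8 sites of 224 to 2789 bp.

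**Figure D3:**
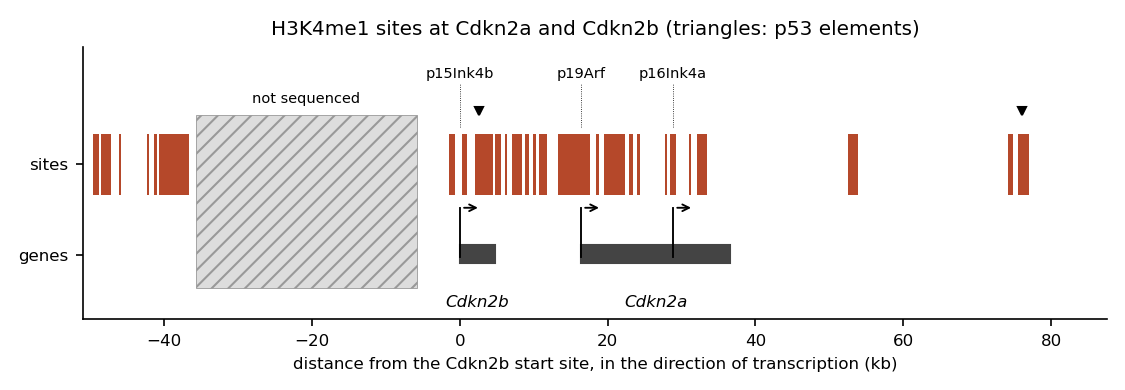
H3K4me1 sites (blocks), genes (grey bars), TSSs (arrows) and p53 elements (triangles) over the joint window of Cdkn2a and Cdkn2b, with distance from the Cdkn2b TSS in kb along the direction of transcription and the unsequenced part of the assembly hatched. Sites are packed from the Cdkn2b promoter to the p16Ink4a TSS, and the widest stretch without sites, 35253 bp, is for the most part the unsequenced 30000 bp.

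The longest stretch without sites in the joint window began upstream of Cdkn2b, beyond the far edge of that upstream site, 1462 bp from its TSS, and measured 35253 bp (chr4:89312502-89347754). Of all gaps between neighbouring sites, 7.94% were as long or longer, with unsequenced bases counted. Of this stretch, 30000 bp (chr4:89316800-89346799), or 85.1%, is a gap in the assembly, in which no read can be placed, and 5253 bp are sequenced. No protein-coding gene lies inside it. Counted in sequenced bases, the longest stretch was instead on the downstream side of Cdkn2a, with 25800 bp (chr4:89208263-89234062), which reaches beyond the window, followed by 20343 and 19041 bp. Gaps of at least 25800 sequenced bp made up 11.6% of all, and those of at least 5253 sequenced bp made up 41.1%. On the far side of the assembly gap sites resumed with one of 3952 bp, 36716 bp from the Cdkn2b TSS. Next to the stretch, the nearest protein-coding gene with a promoter site was Cdkn2b itself on one side. On the other it was Elavl2, which encodes a neuronal RNA-binding protein, 2053 kb away, beyond Dmrta1 and Zfp352, neither of which had a promoter site.

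Cdkn2c (p18Ink4c), on the same chromosome at chr4:109660876-109667189, had 16 mostly narrow sites with a median width of 474 bp, and 8.86% of its window was covered. Its most upstream TSS was inside a site of 471 bp, so that no site of at least 500 bp touched the 1 kb around it. The TSS of Cdkn2c-201, 1817 bp downstream, was inside a site of 972 bp. Beyond a site in Gm12811 that ended 26808 bp from the TSS, a stretch of 88866 bp without sites led out of the window, and 2.24% of all gaps between neighbouring sites were as long or longer. The widest site, 2043 bp at chr4:109656368-109658410, lay downstream over the non-coding gene 9630013D21Rik.

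The fourth INK4 gene, Cdkn2d (p19Ink4d), lies at chr9:21288410-21291407, with 6 other protein-coding genes in its window. As in Cdkn2b, the TSS was left free between 2 sites: the uncovered stretch measured 641 bp, with a site of 602 bp inside the gene and one of 258 bp upstream. Within 5 kb of the TSS the covered bins of 100 bp of Cdkn2b and Cdkn2d coincided more than those of any other of the 45 pairs of the 10 genes. The Jaccard index (bins covered in both genes over bins covered in either) was 0.627. No shared bin lay upstream of the TSS. Most lay where Cdkn2d has a site of 3114 bp, from 1952 to 5065 bp downstream of its TSS, which covers the TSS of the neighbouring gene Kri1. The widest site of all 165, 4580 bp at chr9:21331434-21336013, was in an intron of Slc44a2, which held 8 sites of the Cdkn2d window.

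At Trp53, chr11:69580359-69591873 on the plus strand, a site of 3479 bp (chr11:69579877-69583355) began 482 bp before the TSS and ran 2996 bp into the gene, and it was the only site in the gene. The site is shared with Wrap53, which starts on the opposite strand beside Trp53. The window held 11 sites and 14.82% of it was covered, just below the upper quartile of all protein-coding genes, 14.84%. Of the other sites, 6 were downstream and 4 upstream, and that nearest to the promoter, 2172 bp wide, ended 1185 bp before the TSS inside Wrap53.

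Mdm2, at chr10:117688875-117710758 on the minus strand, had 23 sites and 20.3% of its window covered. A site of 3127 bp, chr10:117708898-117712024, lay over the most upstream TSS and its CpG island of 1058 bp, and 1 further site of 1830 bp followed 2430 bp into the gene. The rest of the gene was free of sites up to Cpm. On the upstream side 11 sites were found, the widest of them 2844 bp and centred between genes. Cpm, which encodes a carboxypeptidase and lies downstream, held 10.

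Rb1 is the longest of the genes, 142150 bp at chr14:73183673-73325822 on the minus strand. Its window held 22 sites, yet only 6.28% of it was covered. The TSS and the CpG island of 1407 bp were inside a site of 2818 bp (chr14:73324593-73327410), the widest in the window. In the gene body 13 sites were counted, 9 of them under 500 bp, and 5.10% of the bases were covered. Of the 13 sites, 6 lay within 10 kb of Lpar6, a receptor gene inside an intron of Rb1 and on the other strand (chr14:73237895-73243294). Between them and the next site towards the promoter lay 44999 bp of intron and exon without a site.

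**Figure D4:**
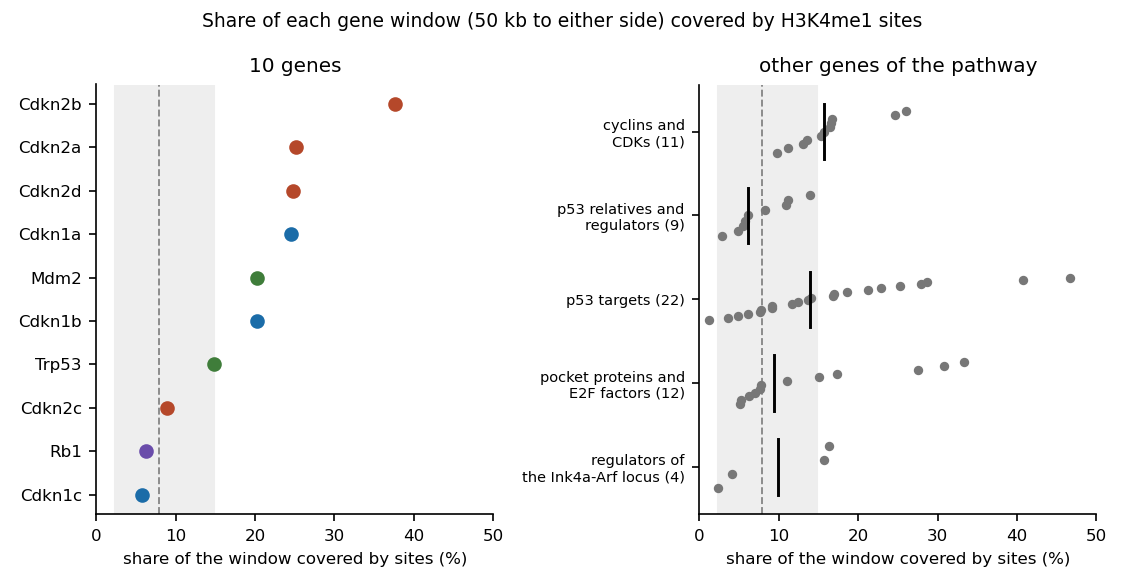
Share of each gene window covered by H3K4me1 sites, in percent of sequenced bases, for the 10 genes (coloured by family) and for 58 other genes of the pathway (grey points, with the median of each group as a line and the number of genes in brackets). The shaded band spans the quartiles of all protein-coding genes, 2.31 to 14.8%, with their median of 7.87% dashed, and 8 of the 10 genes lie above that median.

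Over the 10 windows, the covered share ranged from 5.70 to 37.7%, with a median of 20.2%, compared with a median of 7.87% over all protein-coding genes. The INK4 genes had a median of 24.98% and the Cip/Kip genes 20.2%, and 6 of the 10 genes lay above the upper quartile. Cdkn1c and Rb1 were below the median of all genes. Cdkn2b stood at percentile 99.0 and Cdkn2a at 93.1, but they share most of their sites and are not independent. Their shares also leave out the unsequenced bases of their windows. With 17.7 sites per 100 kb, the median density was also above that of all genes, 8.62. A CpG island lay at the promoter of 8 of the 10 genes. Neither the covered share nor the density was set against genes with such an island alone. The 165 sites had a median width of 719 bp, compared with 603 bp for all sites. Of the 165 sites, 87 were centred in introns, 48 between genes, 11 in UTRs, 9 in coding exons and 10 in non-coding exons, and 27 came within 1 kb of a protein-coding TSS. The same shares over all sites are not given here. As the windows were laid around genes, these counts partly follow from that choice and are a description only.

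Binding of p53 was not measured, but its response element can be searched for in the sequence. The element was taken as 2 adjoining copies of the 10-base p53 consensus without a spacer, with the C and G of each core required and up to 2 mismatches elsewhere. Elements with a spacer or with more mismatches are missed by this search. In the 10 windows 20 elements were found, and 9 of them, or 45.0%, were inside sites. Over the genome 8.59% of such elements were. Sites covered 15.8% of the bases of these windows, compared with 5.64% of the genome. An element was present in 8 of the 165 sites (4.85%), compared with 1.34% of all sites, which were narrower on the whole. No test was made of these shares.

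The elements inside sites are given with 10 bases to either side, on the strand of the gene, where they do not lie in a UTR, with the 20 bases of each element in capitals. Distances are from the most upstream TSS of the gene.
Cdkn1a, 38 bp upstream of the TSS, chr17:29090928-29090947: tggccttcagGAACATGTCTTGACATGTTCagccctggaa
Cdkn1a, 11927 bp upstream, chr17:29079039-29079058: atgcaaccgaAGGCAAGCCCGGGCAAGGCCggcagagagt
Cdkn2b, 2629 bp downstream, chr4:89308400-89308419: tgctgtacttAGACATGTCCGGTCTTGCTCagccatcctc
Cdkn2a, 59711 bp downstream, chr4:89234932-89234951: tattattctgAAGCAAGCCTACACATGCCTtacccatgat
Mdm2, 11225 bp upstream, chr10:117721973-117721992: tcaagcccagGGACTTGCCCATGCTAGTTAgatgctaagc
Mdm2, 6988 bp upstream, chr10:117717726-117717755, 2 elements sharing 10 bases: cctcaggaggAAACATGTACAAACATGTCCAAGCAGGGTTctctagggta
Rb1, 91041 bp downstream, chr14:73234771-73234790: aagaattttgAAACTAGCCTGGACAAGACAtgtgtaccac

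Both elements of the Cdkn1a window were inside sites and each had 1 mismatch. The one nearer to the gene was in the site of 515 bp over the most upstream TSS. The other lay in an exon of Trp53cor1, in a site of 2280 bp. The coding TSSs of Cdkn1a-201 and Cdkn1a-205 lie 2793 and 2805 bp downstream of that most upstream TSS. Measured from these 2 TSSs, the nearer element lies beyond 1 kb. Among all protein-coding genes, 0.802% had an element within 1 kb of the most upstream TSS that was inside a site. The element in an intron of Cdkn2b, in a site of 2462 bp, had 1 mismatch. In the Mdm2 window, 3 of 6 elements were in sites, all upstream of the gene, 2 of them overlapping in the site of 2844 bp. The site of 3127 bp over the most upstream TSS of Mdm2 held no match, and elements of another form were not searched for there. Rb1 had 2 of 6 in sites, 1 of which lies in a UTR of Lpar6. None of the 2 elements each near Cdkn1c and Cdkn2d was in a site. The windows of Cdkn1b, Cdkn2c and Trp53 held no match.

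**Figure D5:**
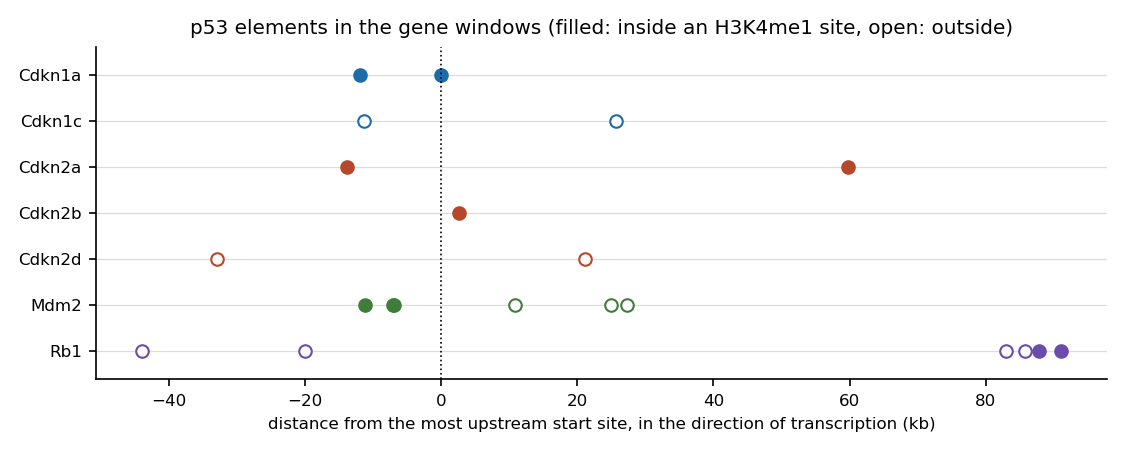
Position of each p53 element in the windows of the 7 genes that have any, in kb from the most upstream TSS along the direction of transcription, filled where the element is inside an H3K4me1 site and open where it is outside. The elements of Cdkn1a, Cdkn2a and Cdkn2b are all inside sites and those of Cdkn1c and Cdkn2d are all outside.

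Words of other factors were counted in the same sites, with no test. The AP-1 word TGANTCA was in 32.1% of the 165 sites and 35.5% of all, and the TEAD word GGAATG in 66 of the 165, compared with 41.6% of all. The Sp1 box was in 32.7% compared with 20.2%, and the CCAAT box in 61.2% compared with 57.4%. The E2F words were in 2 sites, or 1.21%, compared with 0.685% of all.

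The other genes of the pathway, 58 in a list of cyclins and CDKs, pocket proteins and E2F factors, relatives and regulators of p53, p53 targets and regulators of the Ink4a-Arf locus, had a promoter site in 54 cases or 93.1%. As 49 of them have a CpG island at the promoter, this is to be read beside the 93.0% of promoters with an island. All 11 cyclin and CDK genes and all 12 pocket protein and E2F genes had one. The 4 genes without were Sfn (14-3-3 sigma), Mdm4, an inhibitor of p53 related to Mdm2, Usp7, the deubiquitinase that acts on p53 and Mdm2, and Cbx7, a Polycomb protein that represses the Ink4a-Arf locus. Sfn has a CpG island and had no site at any annotated TSS, while Mdm4, Usp7 and Cbx7 had a site at another TSS than the most upstream one. The highest covered shares were those of the p53 targets Phlda3 (46.7%) and Btg2 (40.8%), followed by E2f2 (33.4%), E2f6 (30.8%) and Bbc3 (28.7%), which encodes PUMA. The median of the 58 genes was 12.7%.

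From 5 kb before to 5 kb after the TSS, 44 of 100 bins of 100 bp were covered at Cdkn1a. The protein-coding genes whose covered bins shared most with it were Usp10, with an index of 0.846, and Creb3l1 and Ehd2, both with 0.830, compared with a median of 0.143 over all 21937 genes. The index compares positions only, within a single pooled set.

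The cells were checked against markers. A promoter site was present in 11 of 12 fibroblast genes, all but Col3a1, and in 5 of 16 genes of other cell types (Cdh1, Des, Epcam, Neurod1 and Pecam1), beside 63.9% of all protein-coding genes. A CpG island lay at 6 of the 12 and 5 of the 16 promoters, and at 4 of the 5 genes of other cell types with a site, all but Pecam1. These counts are to be read beside the 93.0% of promoters with an island and 29.9% without that had a site. A site is not expression. Reads of 75 bases can be placed uniquely over 88.5 to 99.7% of the sequenced bases of the windows and 99.4 to 100% of the promoters. For Cdkn1a this fell to 24.9% of the window and 16.4% of the promoter when the alternate and patch sequences of the assembly, which repeat this locus, were counted as well. Whether the authors aligned to these was not stated in the sources used here.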

How the data were processed

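H3K4me1 ChIP-seq was available for 12 libraries of NG3 cells, with 2 inputs. Per the methods and the labels, reads were trimmed (Trim Galore), aligned to mm10 (GRCm38.p6) with BWA and filtered with SAMtools by the authors, who then combined replicates in Picard and used MACS2 in broad mode for peak calling. Its version and thresholds are not given in the sources used here. The deposited values are of no other kind than positions, the start and end of each peak in bases, for all samples together, so that samples could not be grouped and no comparison or test between them was made. Positions printed here count from 1, whereas starts in the table count from 0.

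Python 3.11.15 was used for overlaps, with numpy 2.4.6, pandas 2.3.3 and numba 0.67.0, and figures drawn with matplotlib 3.10.9. Genes were those of GENCODE M21, and release M25, named in the methods, was not used here. Covered shares are of sequenced bases. CpG islands were called on repeat-masked sequence as runs that gained a score of 17 at each CpG and lost 1 at any other base, and 16196 were kept for being longer than 200 bp, with 50% GC or more and observed CpG above 0.6 of the expected number. Tested on simulated data, overlaps were right in 400 of 400 windows, and 30 of 30 islands and 40 of 40 p53 elements were found.

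The members and lists were chosen with earlier results of these data known. Genes named are the 10 members, pathway genes without a promoter site or among the 5 highest covered shares, the neighbours of the stretch without sites, and the 3 genes most like Cdkn1a. The promoter sequences shown and the host genes of sites were chosen after their values were seen.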

Additional observations from a re-analysis of the deposited data

How the results depend on the processing

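The number of genes with a promoter site stayed at 8 or 9 of 10 under 7 alternatives. It was 8 with sites of at least 500 bp, where Cdkn2c was lost as well, and with the centre of a site required in the promoter, where Trp53 was lost. Cdkn1c had no promoter site under any of them. The count over the pathway list ran from 43 to 57 and that over all protein-coding promoters from 12295 to 14879. The number of sites in the windows moved to 107 with flanks of 25 kb, 290 with 100 kb, 40 in the gene bodies alone, 108 for sites of at least 500 bp and 100 after merging sites within 1 kb. The median covered share was 20.5%, 17.04%, 37.9%, 18.96% and 23.6% under these 5 settings, and 22.4% of bases not masked as repeats, and 7 to 9 of the 10 genes stayed above the median of all protein-coding genes. The stretch without sites at Cdkn2a and Cdkn2b measured 57538 bp for sites of at least 1000 bp. As called from all sites, at 35253 bp, it held 5253 sequenced bases and 3739 bases not masked as repeats. In the central 200 bp, 3 sites held a p53 element, compared with 8 over whole sites. No paired analysis was possible because the peak set carries no measurement of a library, and leaving out a replicate was not run for the same reason. Depth is unknown, so that a stretch without a site is not shown to lack H3K4me1.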

Other observations

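Beyond Mtap, on the far side of Cdkn2a from Cdkn2b, lies the cluster of type I interferon genes. Within 1 Mb of Cdkn2a and Cdkn2b, the longest stretches without sites on that side were 84505 bp with 5 protein-coding genes inside, among them Ifna14 and Ifna9, 65095 bp with 8, among them Ifna7 and Ifna5, and 52828 bp with Ifna16, Ifna2 and Ifnab. Mtap, which encodes a phosphorylase of the methionine salvage pathway, had a promoter site and 21.3% of its window covered. On the other side a stretch of 513529 bp without sites began within Dmrta1, 377947 bp from Cdkn2b, and 376 gaps in the genome were as long or longer. For these stretches, neither the sequenced bases nor the share where reads can be placed uniquely was counted. The interferon genes were chosen after their values were seen.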
